A study of Homo sapiens with 14 samples.

Results

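Interferon signalling was described through 9 genes of the pathway that type I interferon uses: the receptor chains IFNAR1 and IFNAR2, the kinase JAK1, the transcription factors STAT2 and IRF9, and the interferon regulatory factors IRF1, IRF2, IRF3 and IRF7. They were chosen by symbol, and each had 1 row among the 35805 rows of the expression table and passed the filter that left 16433 tested genes. Total RNA was sequenced from K562, an established cell line from a human chronic myeloid leukaemia, engineered to carry dCas9-KRAB, an inactive Cas9 fused to a repressor domain that silences the gene a guide RNA points to. The knockdown groups received guides against TASOR, TASOR2, MPP8 or PPHLN1 (Periphilin), in 2, 3, 2 and 2 libraries per the labels. The controls were untransduced cells in 2 libraries and cells with a guide against AAVS1, sgAAVS1, in 3 libraries. All groups, the controls included, carry dCas9-KRAB, and no interferon is named in the labels. In the groups with a guide, harvest was at 7 days from transduction. The question was how the transcriptome responds to loss of HUSH, which contains TASOR, or HUSH2, which contains TASOR2. Both silence repetitive elements and some genes through chromatin, and MPP8 and Periphilin act in both.

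Type I interferon is known to bind IFNAR1 and IFNAR2, which carry the kinases TYK2 and JAK1. Their signal leads through STAT2 and IRF9, subunits of ISGF3, a factor that binds the interferon-stimulated response element (ISRE) in front of antiviral genes. Interferon gamma acts through its own receptor, JAK1 and JAK2, and leads to binding at a GAS element, and IRF1 is a known early target. IRF3 and IRF7 act a step earlier, where sensors of viral nucleic acid have them phosphorylated so that they switch on the interferon genes themselves. Much of this control is by phosphorylation, which RNA levels do not measure.

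None of the 9 genes differed from sgAAVS1 by a fold of 2 in any knockdown. Of all genes, 1.97% to 4.3% were called in either direction, so that count is near the share over all genes. Between 12 and 16 of 36 tested ISGF3 target genes were called higher in the TASOR2, MPP8 and PPHLN1 knockdowns. Some of these targets passed the filter only through groups where they were high. Among members, the differences from sgAAVS1 farthest from 0 on the log2 scale were those of IRF7 in the PPHLN1 (0.60 ± 0.22) and MPP8 (0.55 ± 0.22) knockdowns. IRF2 in PPHLN1 (0.52 ± 0.15) and IFNAR1 in TASOR2 (0.49 ± 0.09) followed. All levels are the authors' group means in log2 scaled reads, so they come without SD or n. The number behind each ± is the distance to either bound of a 95% counting interval, which covers counting error only and not the spread between guides or cultures. A call needed means at least 1 apart (a fold of 2), a higher mean above 0 and an interval that left out 0. A fold of 1.5 was used as a smaller rule, and no p-value is given. Levels are not compared between genes, because they are not scaled to length. In bulk RNA, fewer cells with a transcript and less of it per cell cannot be told apart.

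Depth was similar across groups, between 5857954 reads per library (geometric mean) in TASOR2 and 7406988 in untransduced cells, and the members had between 110 reads per library (IRF7 in sgAAVS1) and 1680 (JAK1 in untransduced cells). The low values of the table showed that the TASOR2 mean holds 2 libraries where the labels list 3, and which guide is left out is not stated in the labels. Each targeted gene was lower in its own knockdown, with 6.56% of the sgAAVS1 level left for FAM208A (TASOR), 37.5% for FAM208B (TASOR2), 28.2% for MPHOSPH8 (MPP8) and 40.8% for PPHLN1. All 12 erythroid and K562 identity genes were above 0 on the log2 scale in every group, with a summed log2 level between 10.47 and 10.73. Of marker lists of other cell types, 1 of 4 T cell, 1 of 3 B cell, 2 of 4 myeloid, 2 of 4 epithelial and 2 of 3 fibroblast genes were above 0 in every group. Their summed log2 levels over the 6 groups lay between 4.38 and 4.90, 3.66 and 4.37, 6.35 and 6.65, 8.18 and 8.43, and 5.79 and 6.37, and CD8A, MS4A1 and KRT5 were at 0 reads. Over all tested genes, the median of the differences from sgAAVS1 was 0.16 in TASOR, 0.07 in TASOR2, 0.12 in MPP8, 0.17 in PPHLN1 and 0.05 in untransduced cells, so small positive differences are read against it.

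Promoter windows from RefSeq (GRCh38.p14, 250 bases before to 50 after an annotated start) were at hand for 5 of the 9 members: IFNAR1, JAK1, STAT2, IRF9 and IRF1. They are shown for the ISGF3 subunits and IRF1 because these genes are themselves known interferon targets, beside SAMD9 and IFIH1, a pair of ISGF3 targets that were called higher in 3 knockdowns. Both strands were searched for the ISRE, spelled GAAANNGAAA or in reverse complement TTTCNNTTTC, and for GAS, spelled TTCNNNGAA, which is its own reverse complement. Capitals mark the matched letters. The windows are STAT2 chr12:56360058-56360357 (minus strand), IRF9 chr14:24161015-24161314 (plus), IRF1 chr5:132490724-132491023 (minus), SAMD9 chr7:93117930-93118229 (minus) and IFIH1 chr2:162318635-162318934 (minus), each written 5′ to 3′ on its gene's strand.
STAT2: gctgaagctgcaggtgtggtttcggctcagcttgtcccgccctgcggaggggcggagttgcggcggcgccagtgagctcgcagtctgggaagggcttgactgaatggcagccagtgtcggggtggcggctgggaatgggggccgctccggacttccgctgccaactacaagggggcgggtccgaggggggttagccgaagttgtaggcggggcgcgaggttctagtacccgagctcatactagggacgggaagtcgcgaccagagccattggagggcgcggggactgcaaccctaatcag
IRF9: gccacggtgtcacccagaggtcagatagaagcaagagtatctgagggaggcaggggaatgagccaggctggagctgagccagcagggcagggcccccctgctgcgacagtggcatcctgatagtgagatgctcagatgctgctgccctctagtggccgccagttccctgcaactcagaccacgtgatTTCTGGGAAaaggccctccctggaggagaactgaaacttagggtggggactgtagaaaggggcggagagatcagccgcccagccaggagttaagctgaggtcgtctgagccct
IRF1: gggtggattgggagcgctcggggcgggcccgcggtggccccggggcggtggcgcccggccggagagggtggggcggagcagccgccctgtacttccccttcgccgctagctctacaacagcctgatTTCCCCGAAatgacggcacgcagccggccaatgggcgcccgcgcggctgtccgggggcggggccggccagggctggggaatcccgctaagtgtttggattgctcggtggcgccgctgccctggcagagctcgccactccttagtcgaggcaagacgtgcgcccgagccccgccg
SAMD9: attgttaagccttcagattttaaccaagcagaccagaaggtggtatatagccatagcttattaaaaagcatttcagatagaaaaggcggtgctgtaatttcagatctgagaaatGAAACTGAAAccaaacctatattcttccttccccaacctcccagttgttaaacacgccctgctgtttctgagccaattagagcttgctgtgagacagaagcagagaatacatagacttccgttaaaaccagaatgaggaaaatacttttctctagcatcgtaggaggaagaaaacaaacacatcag
IFIH1: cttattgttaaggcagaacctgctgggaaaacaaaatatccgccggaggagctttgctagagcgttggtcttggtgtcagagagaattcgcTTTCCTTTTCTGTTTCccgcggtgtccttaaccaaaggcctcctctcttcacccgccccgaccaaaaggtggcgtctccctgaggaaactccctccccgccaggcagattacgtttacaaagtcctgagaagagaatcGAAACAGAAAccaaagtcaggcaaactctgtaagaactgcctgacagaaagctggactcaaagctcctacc

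None of the 8 windows of these 5 members held the ISRE spelling. A GAS match began 63 bases before the start of IRF9 and 124 before that of IRF1. In SAMD9, an antiviral factor gene named by the rule for list genes, an ISRE match began 136 bases before the start. In IFIH1, which encodes the RNA sensor MDA5 and was picked after its values were seen, matches began 159, 153 and 21 bases before it, and the first pair overlap. Of all 35116 windows, 3.57% held the ISRE and 7.66% held GAS. Of the 36 tested genes of the ISGF3 target list, 29 had a window, and 18 of those held the ISRE. These are counts of genes, which can have several windows, and not shares of windows. In the TASOR2 knockdown the genes with the ISRE were 8 of 12 called higher and 10 of 17 not called. The counts were 7 of 10 and 11 of 19 in the MPP8 knockdown, and 7 of 11 and 11 of 18 in the PPHLN1 knockdown. Some genes of the list passed the filter only through groups where they were high, so these counts are a description. A match describes letters in a window and not a bound site, and a window with none says nothing about the factor.

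**Figure D1:**
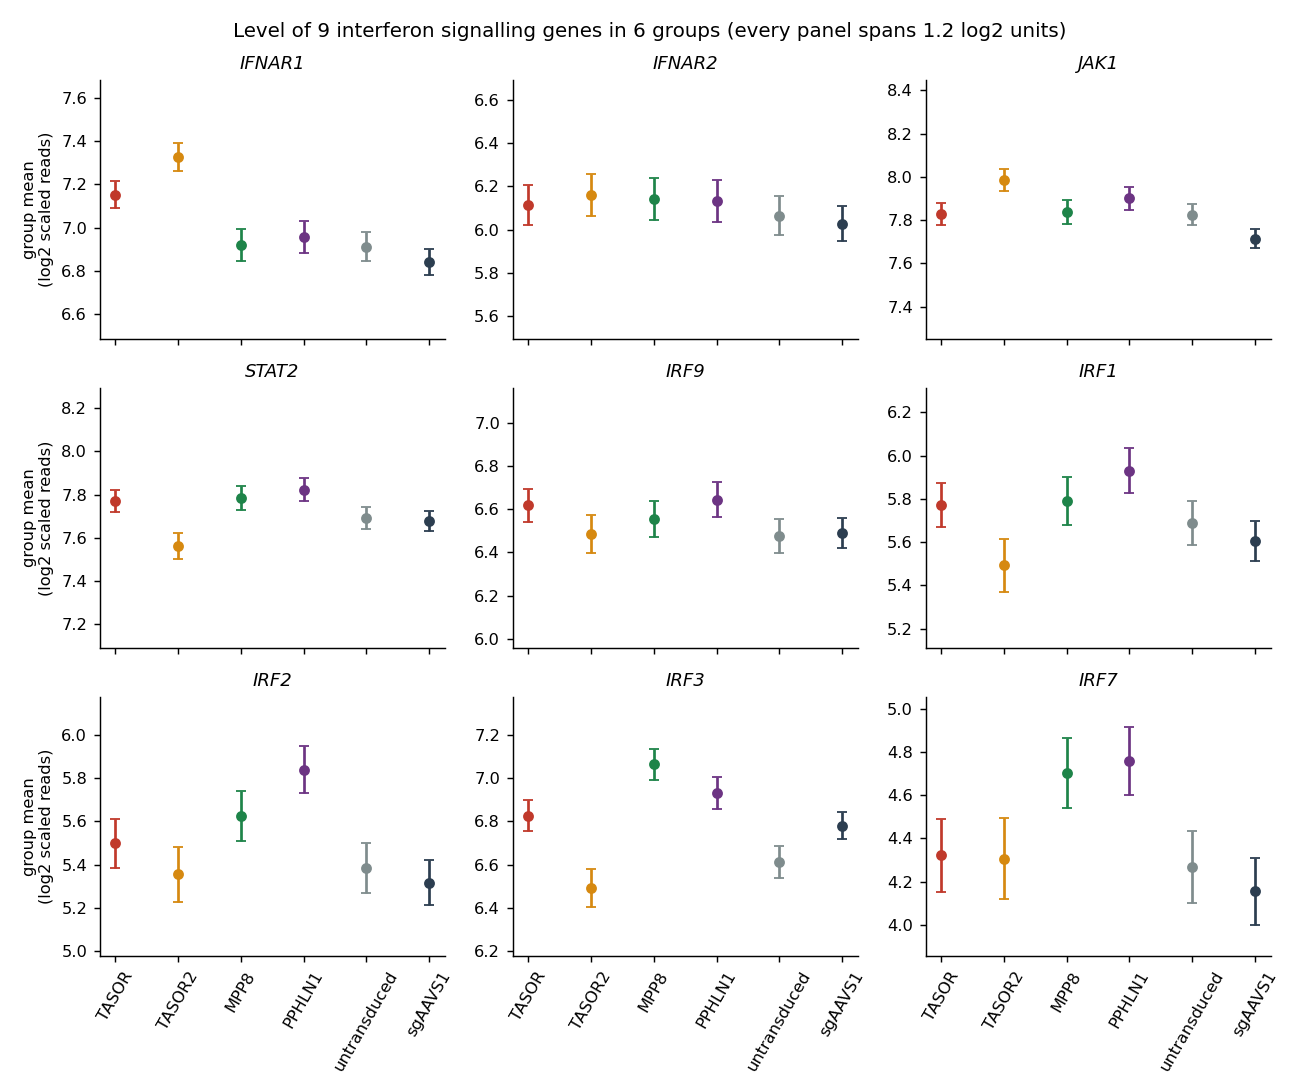
Group mean (log2 scaled reads, y axis) of each of the 9 genes in 6 groups (x axis), with bars for the 95% counting interval of the mean and every panel spanning the same log2 range. IFNAR1 is highest in TASOR2 (7.33) and TASOR (7.15), IRF7 is highest in PPHLN1 (4.76) and MPP8 (4.70), and IFNAR2 stays between 6.03 and 6.16.

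IFNAR1 (chr21:33324477-33359862, plus strand, hg38), which encodes the signalling chain bound by TYK2, had levels of 7.15 in TASOR, 7.33 in TASOR2, 6.92 in MPP8 and 6.96 in PPHLN1 knockdowns, against 6.91 in untransduced and 6.84 in sgAAVS1 cells. The TASOR2 and TASOR means were the high ones. TASOR2 lay above TASOR by 0.18 ± 0.09, and TASOR lay above the next lower mean, PPHLN1, by 0.20 ± 0.10. Among the 4 other means, no neighbouring pair differed beyond counting error. The difference from sgAAVS1 was 0.31 ± 0.09 in TASOR and 0.49 ± 0.09 in TASOR2, and from untransduced cells 0.24 and 0.42. In PPHLN1 the difference from sgAAVS1 was 0.12 ± 0.10, beside a median of 0.17 over all genes, and in MPP8 0.08 ± 0.10. With a trend on transcript GC content removed, the TASOR2 difference of IFNAR1 was 0.46. Median centring and quantile normalization left 0.39 and 0.37 in TASOR2, and 0.11 and 0.17 in TASOR.

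IFNAR2 (chr21:33229901-33265675, plus), which encodes the high-affinity chain bound by JAK1, had levels of 6.11 in TASOR, 6.16 in TASOR2, 6.14 in MPP8 and 6.13 in PPHLN1 knockdowns, against 6.06 in untransduced and 6.03 in sgAAVS1 cells. No neighbouring pair of these means differed beyond counting error, and the whole range was 0.13, the smallest of the 9. The TASOR2 difference from sgAAVS1 was 0.131 ± 0.127, an interval that just left out 0, and median centring turned it to 0.04. The other knockdowns had intervals that held 0, at 0.09 ± 0.12 in TASOR, 0.11 ± 0.13 in MPP8 and 0.11 ± 0.13 in PPHLN1. Between the receptor chains, the difference from sgAAVS1 of IFNAR1 exceeded that of IFNAR2 by 0.22 ± 0.15 in TASOR and 0.35 ± 0.16 in TASOR2. In MPP8 the same comparison gave -0.04 ± 0.16 and in PPHLN1 0.01 ± 0.16. The IFNAR2 row shares 18902 bases and its strand with the row AP000295.9, whose level was between 4.76 and 5.15, so reads could be divided between them.

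JAK1 (chr1:64833229-64966504, minus), the kinase shared by the type I and gamma receptors, had levels of 7.83 in TASOR, 7.98 in TASOR2, 7.84 in MPP8 and 7.90 in PPHLN1 knockdowns, against 7.83 in untransduced and 7.71 in sgAAVS1 cells. TASOR2 was the highest mean and sgAAVS1 the lowest, and both lay beyond counting error from their nearest neighbour. The difference from sgAAVS1 was 0.27 ± 0.07 in TASOR2 and 0.11 ± 0.07 in TASOR, and untransduced cells were themselves 0.11 ± 0.07 above sgAAVS1. Median centring left 0.18 for JAK1 in TASOR2 and turned it to -0.09 in TASOR. TYK2, the partner kinase, was named whatever its value, and its differences were 0.13 ± 0.06 in TASOR, -0.05 ± 0.07 in TASOR2, 0.12 ± 0.07 in MPP8 and 0.20 ± 0.07 in PPHLN1. In TASOR2 the TYK2 difference was below that of JAK1, by -0.32 ± 0.10, and in the other 3 knockdowns this comparison gave between -0.01 and 0.02.

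STAT2 (chr12:56341597-56360155, minus), the ISGF3 subunit that carries the activation domain, had levels of 7.77 in TASOR, 7.56 in TASOR2, 7.78 in MPP8 and 7.82 in PPHLN1 knockdowns, against 7.69 in untransduced and 7.68 in sgAAVS1 cells. TASOR2 was the low group, and lay below sgAAVS1 by -0.12 ± 0.08, or -0.07 with the GC trend removed. The other 3 knockdowns were between 0.09 and 0.15 above sgAAVS1, beside medians of all genes between 0.12 and 0.17. Relative to the median gene, these STAT2 differences were -0.07 in TASOR, -0.01 in MPP8 and -0.03 in PPHLN1. Median centring, which shifted values by more than the median difference of all genes, turned them to between -0.11 and -0.05.

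IRF9, the DNA-binding subunit of ISGF3, had levels of 6.62 in TASOR, 6.49 in TASOR2, 6.55 in MPP8 and 6.64 in PPHLN1 knockdowns, against 6.48 in untransduced and 6.49 in sgAAVS1 cells. No neighbouring pair differed beyond counting error, and the range was 0.17. The difference from sgAAVS1 was 0.13 ± 0.10 in TASOR, 0.00 ± 0.11 in TASOR2, 0.06 ± 0.11 in MPP8 and 0.15 ± 0.11 in PPHLN1. The TASOR and PPHLN1 intervals left out 0, but median centring turned those differences of IRF9 to -0.08 and -0.06, and quantile normalization to -0.03 and -0.02. The row labelled IRF9 (chr14:24151218-24167402, plus) has the span that GENCODE 29 gives to AL136295.5, not to IRF9 (24161053 to 24166565). It starts 9835 bases before the gene and overlaps the row of RNF31, a ubiquitin ligase subunit on the same strand, by 9444 bases. RNF31 had levels of 7.03 in TASOR, 6.76 in TASOR2, 7.09 in MPP8 and 7.12 in PPHLN1, against 6.87 in untransduced and 6.92 in sgAAVS1 cells. How far RNF31 reads enter the IRF9 value was not tested, so the level of this row is uncertain as a measure of IRF9. The other 8 rows had the GENCODE 29 span of their own gene.

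**Figure D2:**
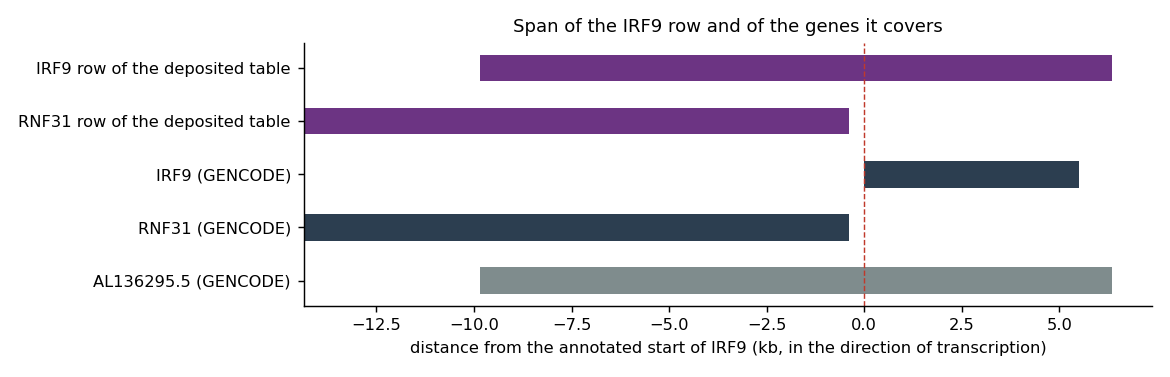
Extent of the deposited rows and GENCODE 29 genes around IRF9, as distance in kb from the annotated start of IRF9 (x axis), with the RNF31 bars running on beyond the left edge. The row labelled IRF9 begins 9835 bases before the gene, over RNF31.

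IRF1 (chr5:132481609-132490798, minus), an activator of antigen presentation and other interferon gamma targets, had levels of 5.77 in TASOR, 5.49 in TASOR2, 5.79 in MPP8 and 5.93 in PPHLN1 knockdowns, against 5.69 in untransduced and 5.61 in sgAAVS1 cells. PPHLN1 was the high group and TASOR2 the low one, but no step between neighbouring means was beyond counting error. The difference from sgAAVS1 was 0.33 ± 0.14 in PPHLN1 and -0.11 ± 0.15 in TASOR2. After median centring and quantile normalization the PPHLN1 difference of IRF1 was 0.11 and 0.13. Both are smaller than the ± 0.14, so an interval of that width around them holds 0. IRF2 (chr4:184387713-184474580, minus), known as an antagonist that shares DNA sites with IRF1, had levels of 5.50 in TASOR, 5.35 in TASOR2, 5.62 in MPP8 and 5.84 in PPHLN1 knockdowns, against 5.38 in untransduced and 5.32 in sgAAVS1 cells. PPHLN1 again was the high group, 0.21 ± 0.16 above MPP8, and the remaining neighbours did not differ beyond counting error. IRF2 was 0.52 ± 0.15 above sgAAVS1 and 0.46 ± 0.16 above untransduced cells in the PPHLN1 knockdown, and 0.31 ± 0.16 above sgAAVS1 in MPP8. Median centring left 0.30 and 0.15 for IRF2 in these knockdowns. The differences of IRF2 and IRF1 from sgAAVS1 did not differ from each other beyond counting error in any knockdown, at 0.20 ± 0.21 in PPHLN1.

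IRF3 (chr19:49659569-49665875, minus), the factor activated by cytosolic RNA and DNA sensors, had levels of 6.83 in TASOR, 6.49 in TASOR2, 7.06 in MPP8 and 6.93 in PPHLN1 knockdowns, against 6.61 in untransduced and 6.78 in sgAAVS1 cells. MPP8 was the high group and TASOR2 the low one, TASOR and sgAAVS1 did not differ beyond counting error, and the controls themselves lay apart, with untransduced cells at -0.17 ± 0.10 from sgAAVS1. The difference from sgAAVS1 was 0.28 ± 0.09 in MPP8 and -0.29 ± 0.11 in TASOR2, while against untransduced cells it was 0.45 ± 0.10 in MPP8 and -0.12 in TASOR2. With the GC trend removed, the TASOR2 difference from sgAAVS1 was -0.09 ± 0.11. Median centring left 0.13 for IRF3 in MPP8 and -0.38 in TASOR2. IRF3 shares 734 bases with BCL2L12 on the opposite strand, whose level was between 6.14 and 6.41, and the labels do not say whether counting used strand.

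IRF7 (chr11:612553-615999, minus), which amplifies interferon production and is itself a known interferon target, had levels of 4.32 in TASOR, 4.31 in TASOR2, 4.70 in MPP8 and 4.76 in PPHLN1 knockdowns, against 4.27 in untransduced and 4.15 in sgAAVS1 cells. In reads per library these were 139, 116, 154 and 161 in the knockdowns, against 143 and 110 in the controls, the lowest depth of the 9 genes. The MPP8 and PPHLN1 means were the high ones, and MPP8 lay above the next lower mean, TASOR, by 0.38 ± 0.23, the single neighbouring step beyond counting error. The difference from sgAAVS1 was 0.55 ± 0.22 in MPP8 and 0.60 ± 0.22 in PPHLN1, and 0.17 ± 0.23 in TASOR and 0.15 ± 0.24 in TASOR2. Against untransduced cells the MPP8 and PPHLN1 differences were 0.43 ± 0.23 and 0.49 ± 0.23, and after median centring those of IRF7 from sgAAVS1 were 0.39 and 0.38. IRF7 had the highest transcript GC content of the 9, 67.2%, and with the GC trend removed the difference from sgAAVS1 was 0.42 ± 0.24 in TASOR2, 0.45 ± 0.22 in MPP8 and 0.52 ± 0.22 in PPHLN1. The order that sets TASOR2 below MPP8 and PPHLN1 therefore rests on values that the GC trend moves, and whether that trend accounts for it was not tested.

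The 9 genes were next read against all tested genes. In the TASOR knockdown, 0 of 9 passed a fold of 2 against sgAAVS1, where 2.29% of all genes did, and 0 passed 1.5, where 5.98% did. Their median difference was 0.13, beside 0.16 over all genes. Relative to that median, IFNAR1 lay above and STAT2 and IRF3 below by more than the counting interval, 3 of 9, beside 29.5% of all genes. The counting interval narrows as reads rise, and this share over all genes was not matched for level. Nothing is therefore read from such shares, here or in the comparisons below.

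In the TASOR2 knockdown, 0 of 9 passed a fold of 2, beside 4.3% of all genes, and 0 passed 1.5, beside 10.2%. The median of the members was 0.04, beside 0.07 over all genes. IFNAR1 and JAK1 lay above the median gene and STAT2, IRF1 and IRF3 below it beyond the interval, 5 of 9, beside 51.5% of all genes. In the MPP8 knockdown 0 of 9 passed a fold of 2, beside 1.97%, and 0 passed 1.5, beside 4.0%. Here IRF2, IRF3 and IRF7 lay above the median gene, 3 of 9, beside 17.7% of all genes, and the medians were 0.12 for both.

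In the PPHLN1 knockdown 0 of 9 passed a fold of 2, beside 3.49% of all genes, and 1 passed 1.5, beside 7.38%. That gene was IRF7. IRF1, IRF2 and IRF7 lay above the median gene, 3 of 9, beside 23.4%, and the medians were 0.15 for the members and 0.17 for all genes. Untransduced cells had 0 of 9 past a fold of 2, beside 1.62%, and 0 past 1.5, beside 3.83%. These 5 comparisons share the sgAAVS1 mean, so they are not independent of each other.

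TASOR2 set against TASOR, with no control in common, likewise had 0 of 9 past a fold of 2, beside 6.62% of all genes, and 0 past 1.5, beside 15.2%. Relative to the median gene, at -0.09, IFNAR1, IFNAR2 and JAK1 lay above and STAT2, IRF1 and IRF3 below, 6 of 9, beside 55.9% of all genes. The differences were 0.18 ± 0.09 for IFNAR1, 0.16 ± 0.07 for JAK1, -0.21 ± 0.08 for STAT2, -0.28 ± 0.16 for IRF1 and -0.33 ± 0.11 for IRF3. With the GC trend removed they were 0.15, 0.17, -0.16, -0.14 and -0.11, with the same ± values. The difference of IFNAR2 went from 0.05 ± 0.13 to -0.07 and that of IRF9 from -0.13 ± 0.12 to -0.01. For IRF2 it went from -0.14 ± 0.17 to -0.19, and for IRF7 from -0.01 ± 0.25 to 0.29. IRF2 and IRF7 then lay beyond counting error from 0, and IRF1 and IRF9 no longer did. Over the 36 differences between a knockdown and sgAAVS1, the highest upper bound of an interval was 0.82 (IRF7 in PPHLN1) and the lowest lower bound was -0.40 (IRF3 in TASOR2), so a change by a fold of 2 lay outside the counting interval of every member. The median range over the 6 groups was 0.44 for the members, 0.42 for all tested genes and 0.32 for the 9336 tested genes with a mean level between those of the members.

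**Figure D3:**
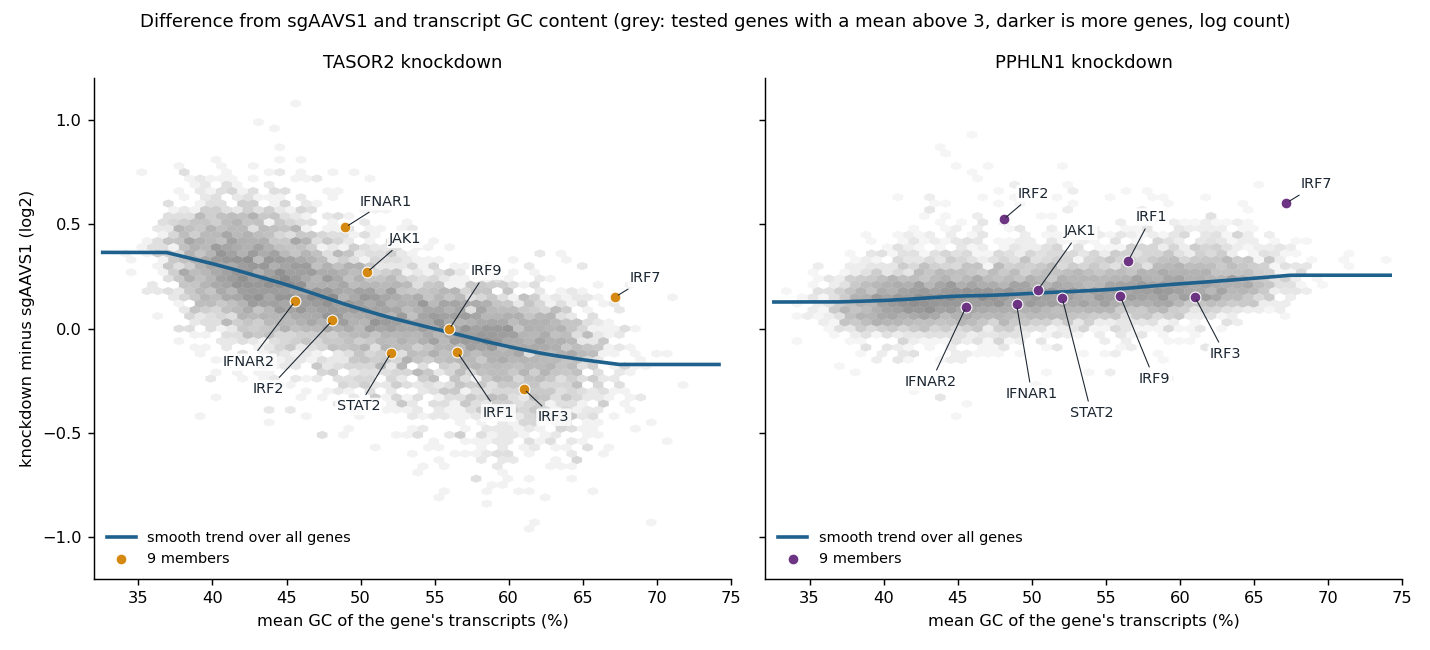
Difference from sgAAVS1 (log2, y axis) against mean transcript GC content (%, x axis) in the TASOR2 and PPHLN1 knockdowns, for the 9 genes (coloured points) over tested genes with a mean above 3 (grey; genes beyond the y axis are not drawn) and a smooth trend (line). In TASOR2 the grey cloud slopes down (Spearman's rho -0.65) and IFNAR1, JAK1 and IRF7 stand above the line.

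Transcript GC content moved with the differences of all genes, most in TASOR2. Over 10856 genes with a mean above 3, Spearman's rho of the difference from sgAAVS1 with GC was 0.17 in TASOR, -0.65 in TASOR2, 0.27 in MPP8, 0.30 in PPHLN1 and -0.45 in untransduced cells, as a description across genes of the same libraries. The members ran between 45.6% (IFNAR2) and 67.2% (IRF7). With the trend removed, the TASOR2 differences of IRF1, IRF2 and IRF9 were 0.01, 0.00 and 0.11, while those of IFNAR1 (0.46) and JAK1 (0.28) lay close to their values before removal (0.49 and 0.27).

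The wider signalling machinery was called at about the rate of all genes. The lists were chosen with earlier results of these data known, and hold 39 tested genes in 6 groups, other receptors, Janus kinases, STAT and IRF factors, negative regulators, and the kinases and adaptors upstream of IRF3 and IRF7. In TASOR 0 were higher and 0 lower, in TASOR2 1 and 1, in MPP8 1 and 0, and in PPHLN1 1 and 0, beside 2.29%, 4.3%, 1.97% and 3.49% of all genes called in either direction, with medians of 0.17, 0.09, 0.12 and 0.19. The gene higher was USP18 each time, a protease that removes ISG15 and dampens the receptor and is itself an ISGF3 target, at 1.73 ± 0.68 in TASOR2, 1.33 ± 0.71 in MPP8 and 1.13 ± 0.73 in PPHLN1. The gene lower was JAK3, a kinase of lymphoid cytokine receptors, at -1.47 ± 0.90 from sgAAVS1 in TASOR2. Upstream, 0 of 11 kinases and adaptors (among them TBK1 and MAVS) were called in any knockdown, a count from which, at these background shares, nothing is read. IRF8, a myeloid and lymphoid factor, was at 0 reads in every group, as were STAT4 and IFNLR1.

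No interferon transcript was seen. All 21 interferon genes in the table, of the alpha, beta, epsilon, kappa, omega, gamma and lambda kinds, had 0 reads in all 6 groups, which allows log2 levels of up to -2.21 in TASOR, -1.97 in TASOR2, -1.98 in MPP8, -1.99 in PPHLN1, -2.30 in untransduced and -2.63 in sgAAVS1 cells (3 counts over the group). Of the neighbours of the type I interferon genes on the short arm of chromosome 9, KLHL9, MTAP, CDKN2A, CDKN2B and DMRTA1 also had 0 reads in every group. MTAP is a housekeeping enzyme of methionine salvage, and deletions around CDKN2A are known in K562 as background. Whether the interferon genes of that region are present in these cells was not tested. FOCAD, the remaining neighbour, had levels between 1.59 and 2.27.

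**Figure D4:**
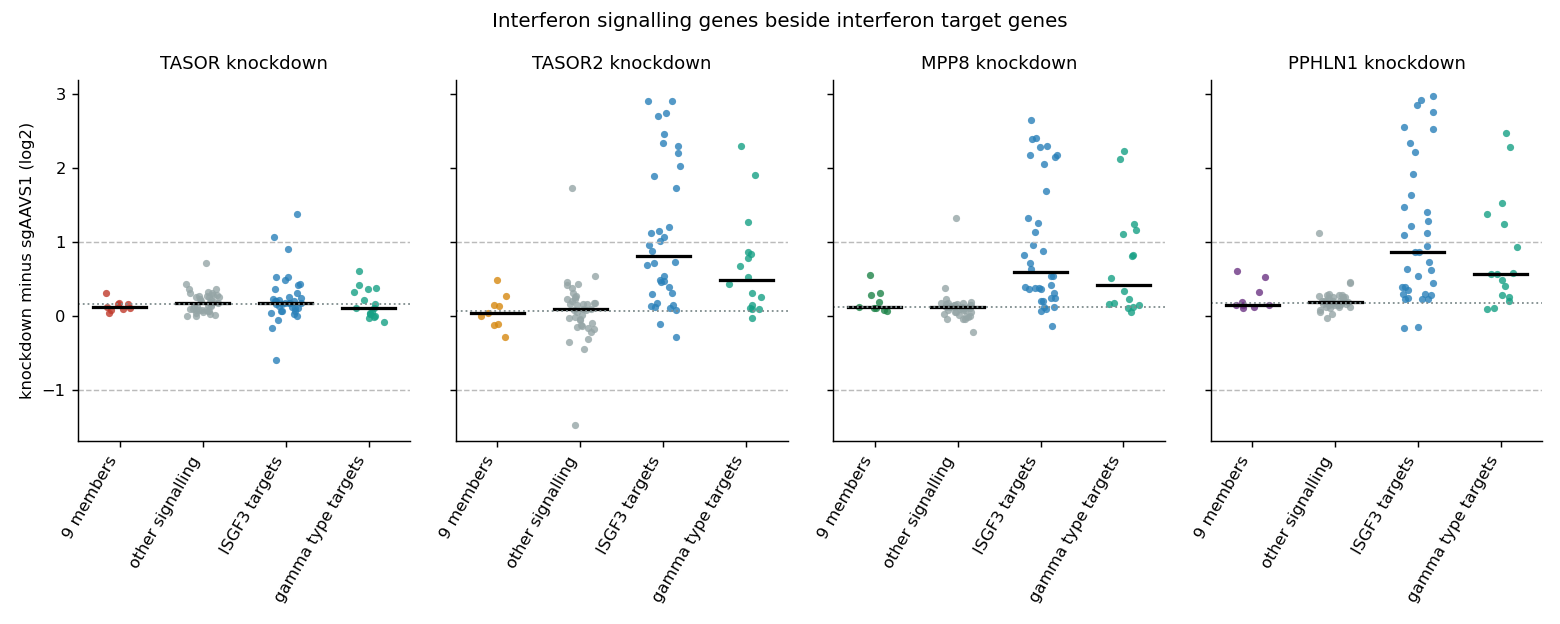
Difference from sgAAVS1 (log2, y axis) in each knockdown for the 9 members, 39 other signalling genes, 36 ISGF3 targets and 16 IRF1 and interferon gamma targets (points are genes, thick bars list medians, dotted line the median of all genes, dashed lines a fold of 2). Targets spread upward in TASOR2, MPP8 and PPHLN1 while the members stay between -0.29 and 0.60.

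Genes that these factors are known to switch on were called higher in the TASOR2, MPP8 and PPHLN1 knockdowns. The count of 0 of 9 members called there is near the share over all genes, so nothing is read from it. Of 36 tested ISGF3 targets, 0 were called higher in TASOR, 16 in TASOR2, 12 in MPP8 and 15 in PPHLN1, and 0 were lower, with medians of 0.18, 0.81, 0.59 and 0.87. Over all genes, 2.29%, 4.3%, 1.97% and 3.49% were called in either direction, and the medians were 0.16, 0.07, 0.12 and 0.17. In untransduced cells 0 were called. The largest by the naming rule were MX1 (an antiviral GTPase), SAMD9, XAF1 (a pro-apoptotic factor) and HERC6 (a ubiquitin ligase). SAMD9 had levels of 4.14 in TASOR, 6.15 in TASOR2, 5.89 in MPP8 and 6.09 in PPHLN1, against 3.08 in untransduced and 3.24 in sgAAVS1 cells. The TASOR2, MPP8 and PPHLN1 means were the high ones, more than 1 above the other 3. HERC6 was 2.91 ± 1.02 above sgAAVS1 in TASOR2. HERC6, MX1 and XAF1 were all below 0 on the log2 scale in both controls and in TASOR, so their differences rest on few reads. They passed the filter, which needs 1 mean above 0, only through knockdowns where they were high. Of the ISGF3 list, 31 genes were above 0 in every group. The counts and medians over 36 therefore include genes that passed the filter through some groups only.

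Of 16 tested targets of IRF1 and interferon gamma, 0 were higher in TASOR, 3 in TASOR2, 5 in MPP8 and 5 in PPHLN1, and 0 lower, with medians of 0.11, 0.48, 0.43 and 0.57. PSMB9, an immunoproteasome subunit, had levels of 1.32 in TASOR, 3.23 in TASOR2, 3.44 in MPP8 and 3.79 in PPHLN1, against 1.59 in untransduced and 1.32 in sgAAVS1 cells. PSMB8, TAP1 (a peptide transporter) and HLA-B were the others named by the rule, and HLA-B in TASOR2, at 0.87 ± 0.43, was not called. IRF1 itself was -0.11 ± 0.15 from sgAAVS1 in TASOR2, where PSMB9 was 1.91 ± 0.49 above it, and 0.33 ± 0.14 in PPHLN1, where PSMB9 was 2.47 ± 0.47 above it. USP18 stands in both the signalling and the ISGF3 target lists, and the signalling and target lists share other genes as well.

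Genes whose 6 means ran most like those of a member were to be named for members past a fold of 2, and there was none. For IRF7, chosen after its values were seen, the nearest of 432 genes with every mean above 2 and a range of at least 1 was C19orf66, now named SHFL and known to inhibit viral ribosomal frameshifting, at a root mean square distance of 0.165 on the log2 scale over 6 groups. C19orf66 had levels of 5.45 in TASOR, 5.45 in TASOR2, 5.94 in MPP8 and 6.09 in PPHLN1, against 5.19 in untransduced and 5.02 in sgAAVS1 cells. MAEL and DPEP2 came next among the 432, at distances of 0.204 and 0.206. DPEP2 was also among the nearest of that set for STAT2, IRF9, IRF1 and IRF2. Likeness to IRF7 was what chose C19orf66, MAEL and DPEP2, and is a description. Among 12673 genes of any range the nearest were ESR2, MCIDAS and BTN3A1, at distances between 0.041 and 0.050.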

How the data were processed

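Total RNA of dCas9-KRAB K562 cells was depleted of ribosomal RNA and made into strand-specific libraries, per the labels' protocols. Per the submitters' processing notes, cutadapt, Bowtie2 and hg38 were used. Not given in the sources used here are versions, the counter, the annotation release and the use of strand. In the 1 table the authors deposited, 35805 rows have 6 value columns, 1 a group mean in log2 scaled reads per the file headers and 5 that the values show to be ratios of a group's log2 mean to the untransduced log2 mean. Each of these deposited ratios was multiplied by the untransduced mean, which gave back the group's log2 mean.

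Steps among low values matched means of log2 whole reads in 100% of those tested (relative tolerance 0.001), with 0 reads set to 0.9. They gave the libraries per mean (3 for sgAAVS1, 2 for each other group) and the depth behind each counting interval. Genes with at least 1 of 6 means above 0 were tested, and of rows with the same symbol the highest was kept. The planned limma test needs single libraries, so a rule of size took its place, tested on simulated data. The simulation held counting error only, so it cannot show how the rule fares with spread between guides or cultures. Genes named were the 9 members, the 4 targeted genes, up to 4 called genes of each list by size, and TYK2 and IRF8 whatever their value. A further gene that the rule names is not reported here. Members and lists were chosen with earlier results of these data known. Row spans and transcript GC came from GENCODE 29 and promoters from RefSeq (GRCh38.p14). GC was known for 80.8% of tested genes, and its trend was a lowess curve with a span of 0.3. Alternatives were the other control, median centring, quantile normalization, other filters on low values, a fold of 1.5 and removal of the GC trend. Python 3.11.15, numpy 2.4.6, pandas 2.3.3 and statsmodels 0.14.6 were used.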

Additional observations from a re-analysis of the deposited data

How the results depend on the processing

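At a fold of 2, 0 of 9 members were called in each of the 6 comparisons, and this held with median centring, quantile normalization, no filter on low values, a stricter filter and the GC trend removed. It also held in the 4 knockdowns with untransduced cells as the control. At a fold of 1.5 the count in PPHLN1 against sgAAVS1 was 1 (IRF7, 0.60) and elsewhere 0. That call was lost with the GC trend removed (0.52), with median centring (0.38), with quantile normalization (0.37) and against untransduced cells (0.49). Single differences depended more on scaling. Of 54, median centring moved 31 beyond their counting interval and changed the sign of 23, quantile normalization 27 and 20, and removal of the GC trend 6 and 7. With untransduced cells as the control, 8 of 36 moved and 2 changed sign. The largest move under any of these was 0.30. No paired analysis was possible because the columns are group means that carry no replicate number, and for the same reason no library could be left out. Spread between guides, and the share of it in differences such as that of IRF7, could not be measured, and depth limits IRF7 most.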
